A study of Cervus nippon with 40 samples.

Results

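bta-miR-1468 and bta-miR-490 are 2 known miRNAs of Sika Deer, listed in the 40 small RNA libraries under the cattle names of miRBase. They were selected by these names, on their level in lung against the other organs and on a drop in the adolescence lung library, so those values are described below without a test. They are 2 of the 499 miRNA names in the files, of which 336 are known miRNAs and the others were predicted by the study. bta-miR-1468 had its highest mean in lung, which is part of what it was selected on. The values of bta-miR-490 went against the label of a lung-high miRNA: it had its highest means in brain and heart, and lung had the rank 5 of 10 organs. Its level was 203 RPM (132 reads) in adolescence lung and 205 RPM (214 reads) in juvenile lung.

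The libraries came from lung, heart, brain, kidney, adrenal, liver, spleen, testes, muscle and antler of male deer of the Shuangyang breed. Each organ was sampled in juvenile deer of 1 year, adolescence deer of 3 years, adult deer of 5 years and aged deer of 10 years. No deer was treated, and muscle is skeletal muscle. Each library was a pool of RNA from 3 deer, and the 10 organ libraries of a stage came from the same 3 deer, 12 deer in all. With 1 library per organ and stage, the spread between deer of the same stage was not measured, and the SD over the 4 libraries of an organ below is a spread over stages.

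A miRNA is a short RNA that guides the silencing complex to messenger RNAs with a matching site, mostly through its seed near the 5′ end, and lowers the protein made from them. In human, the miR-490 hairpin lies in an intron of CHRM2, the gene of a muscarinic acetylcholine receptor that slows the heartbeat and is also present in brain and in smooth muscle of the airways. miR-1468 lies on the X chromosome in human, and less is known of its targets. The sources used here give no place in the deer genome for either miRNA, and the deposited names do not say from which arm of the hairpin the reads came.

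Levels are given in reads per 1000000 miRNA reads of the library (RPM), so each is a share of reads summed over all names. Reads listed under a pair of near-identical names enter this sum under both, such as miR-26a with miR-26c or let-7b with miR-3596. In adolescence lung miR-26a had 211391 reads and miR-26c 211386. The depths below are thus above the number of separate reads, by a part that differs between libraries. In a whole organ, fewer cells of a type and less RNA per cell cannot be told apart. The 4 lung libraries held 1046331 miRNA reads in juvenile, 650219 in adolescence, 767270 in adult and 1042238 in aged deer. Over all 40 libraries the depth was lowest in aged testes (41866 reads) and highest in juvenile muscle (7759033 reads), and the median library had 744715 reads. bta-miR-1468 had 929 reads in total, with at least 1 read in 36 libraries and at least 10 in 17. bta-miR-490 had 11891 reads in total, with at least 1 read in 34 libraries and at least 10 in 29. These totals depend on the depth of each organ, and muscle alone gave 25734494 miRNA reads. No other name had the same reads as either of them.

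The lung label was checked against miRNAs that mark cell types. The epithelial miR-200b stood at 7.65, 3.08, 5.21 and 7.68 RPM in juvenile, adolescence, adult and aged lung, from 22 reads in all. miR-375, also epithelial, had 3 lung reads, and miR-429 and miR-205 had 0. The endothelial miR-126-3p stood at 2.87, 24.6, 9.12 and 28.8 RPM, and it was highest in kidney. Its lung mean of 16.3 RPM came after the kidney mean of 34.1 RPM. Of 7 epithelial markers these 4 matched a name, while miR-200a, miR-200c and miR-141 matched none and could not be read. So the 4 epithelial markers that could be read were close to 0 in the libraries labelled lung. Their sum had a mean of 6.62 RPM in lung, against 48.3 RPM in kidney and 10.1 RPM in liver. The endothelial marker was low but present. Smooth muscle miR-145 stood between 21866 and 32894 RPM in the 4 lung libraries and was highest in spleen. The other member of that list, miR-143, had 8 lung reads. Fibroblast miR-199a-3p stood between 21544 and 38697 RPM and was highest in antler. Markers of neurons summed to between 0.956 and 5.76 RPM in lung, led by miR-124a, which was highest in brain. Each list named here had its highest mean in an organ other than lung, so the lists do not single out lung.

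For bta-miR-1468, lung was the highest organ. The lung libraries stood at 217 RPM in juvenile (227 reads), 30.8 RPM in adolescence (20 reads), 112 RPM in adult (86 reads) and 128 RPM in aged deer (133 reads), with a mean of 122 ± 76.3 RPM (SD, n = 4). Lung thus gave 466 of the 929 reads, or 50.2%, from 1 of 10 organs. Juvenile lung was the highest of all 40 libraries, and adolescence lung was the lowest lung library.

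Heart came next with 24.8, 10.5, 64.4 and 33.1 RPM in juvenile, adolescence, adult and aged deer, from 64, 27, 98 and 30 reads. Its mean was 33.2 ± 22.8 RPM (SD, n = 4), and the lung mean was 3.67 times the heart mean. Kidney followed with 30.4, 13.6, 36.4 and 35.03 RPM from 10, 5, 12 and 30 reads, a mean of 28.9 RPM. The kidney range lay inside the heart range, with adult heart above every kidney library, and both organs overlapped with lung through the adolescence lung library alone.

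The other organs lay lower. Adrenal held 11.2, 5.84, 10.03 and 25.7 RPM in stage order, from 5 to 24 reads. Brain held 4.31, 10.9, 13.8 and 7.59 RPM from 4 to 11 reads, and spleen 8.23, 7.86, 8.83 and 4.79 RPM from 2 to 8 reads. Liver held between 4.29 and 6.06 RPM, from 2 or 3 reads in each library. Testes had 6, 0, 1 and 0 reads, which at 41866 reads in the aged library allows up to 71.7 RPM for a count of 0. Antler had 0, 0, 1 and 16 reads, with 22.2 RPM in the aged library. Muscle had the lowest mean, 2.31 RPM, though from 9 to 25 reads in each library. From kidney down to liver each organ overlapped with the next in the order, and the muscle libraries (1.54 to 3.22 RPM) lay below the liver libraries.

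**Figure D1:**
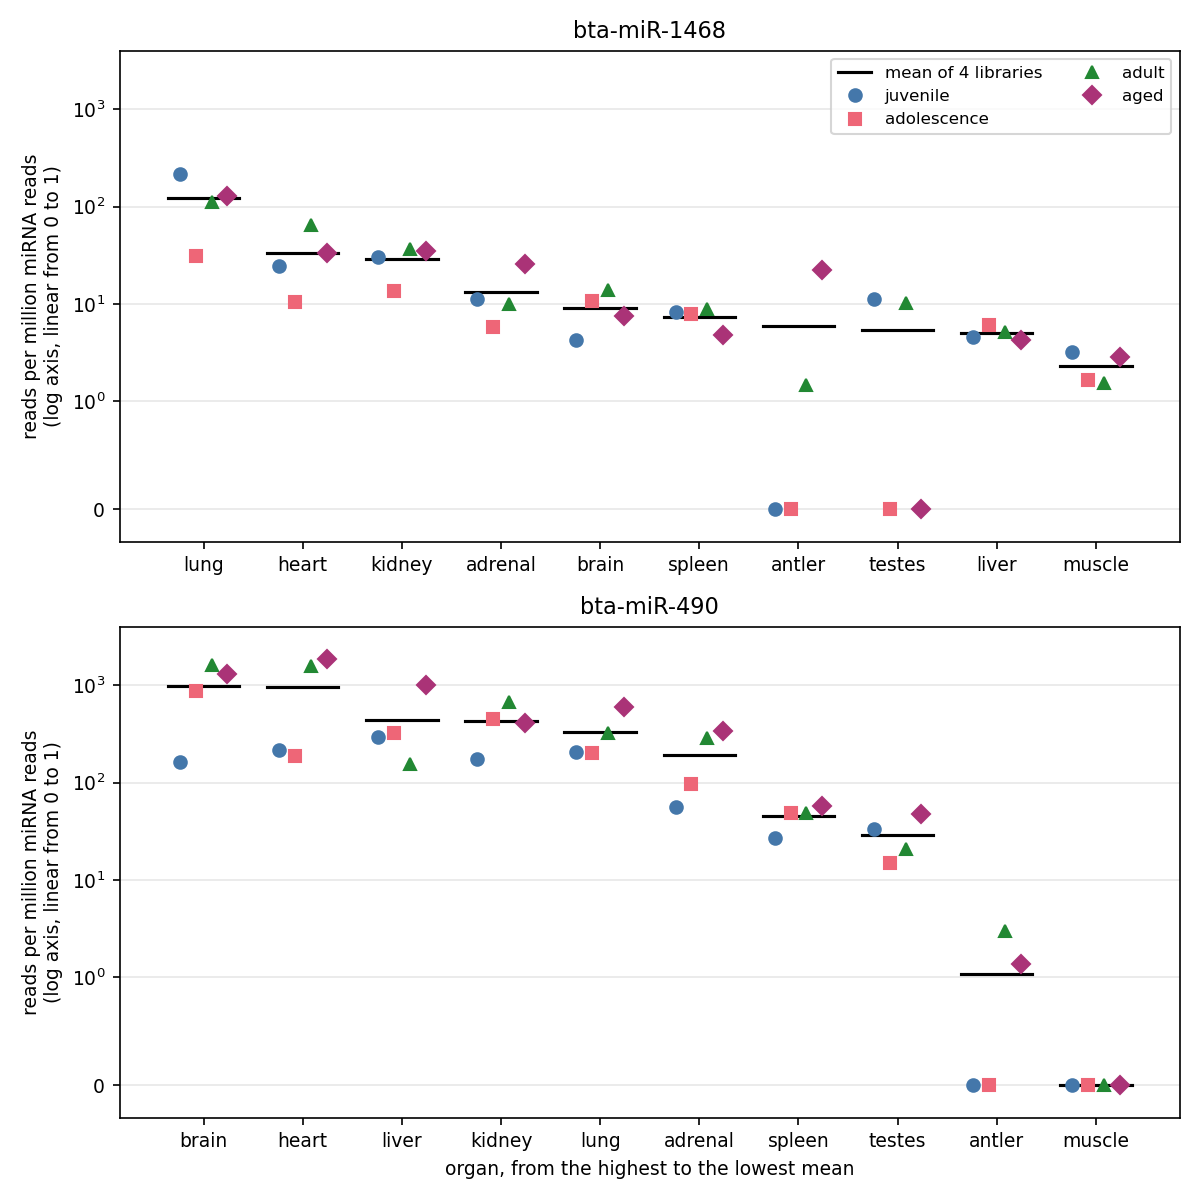
Level of bta-miR-1468 (top) and bta-miR-490 (bottom) in each of the 40 libraries, in RPM on a log axis that is linear between 0 and 1. Organs are ordered by their mean (black line, 4 libraries), and each point is 1 library of the stage given by its colour and shape. Lung stands highest for bta-miR-1468 and in the middle for bta-miR-490, and muscle has no read of bta-miR-490.

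The levels in heart and muscle depended on whether 1 other miRNA was counted in the totals. miR-1, a miRNA of striated muscle, took 91.1% to 92.9% of the reads in muscle and 57.8%, 81.5%, 31.6% and 15.1% in juvenile, adolescence, adult and aged heart, which lowers the share of all other miRNAs there. With miR-1 left out of the totals, the mean of bta-miR-1468 was 122 RPM in lung, 62.2 in heart, 29.0 in kidney and 28.3 in muscle, and lung stood at 1.96 times heart. After TMM scaling, which sets the bulk of miRNAs level between libraries, the means were 116 in lung, 54.4 in heart and 49.6 in muscle, a ratio of 2.13 to heart. Muscle moved from rank 10 to rank 4 and rank 3 on these scales, while heart stayed at rank 2. Lung kept the highest mean on the 3 scales.

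Stage by stage the picture was less even. In RPM, lung was the highest organ for bta-miR-1468 at each of the 4 stages, above kidney in juvenile (217 against 30.4), adolescence (30.8 against 13.6) and aged deer (128 against 35.03), and above heart in adult deer (112 against 64.4). At adolescence the counting intervals of lung (95% exact binomial, 18.8 to 47.5 RPM) and kidney (4.42 to 31.8 RPM) overlapped. With miR-1 left out, adolescence heart stood at 57.0 RPM against 30.9 in adolescence lung, and lung was at rank 2. After TMM scaling lung was at rank 3 at that stage, below heart at 69.9 and behind muscle as well. At the other 3 stages lung was the highest on each scale.

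**Figure D2:**
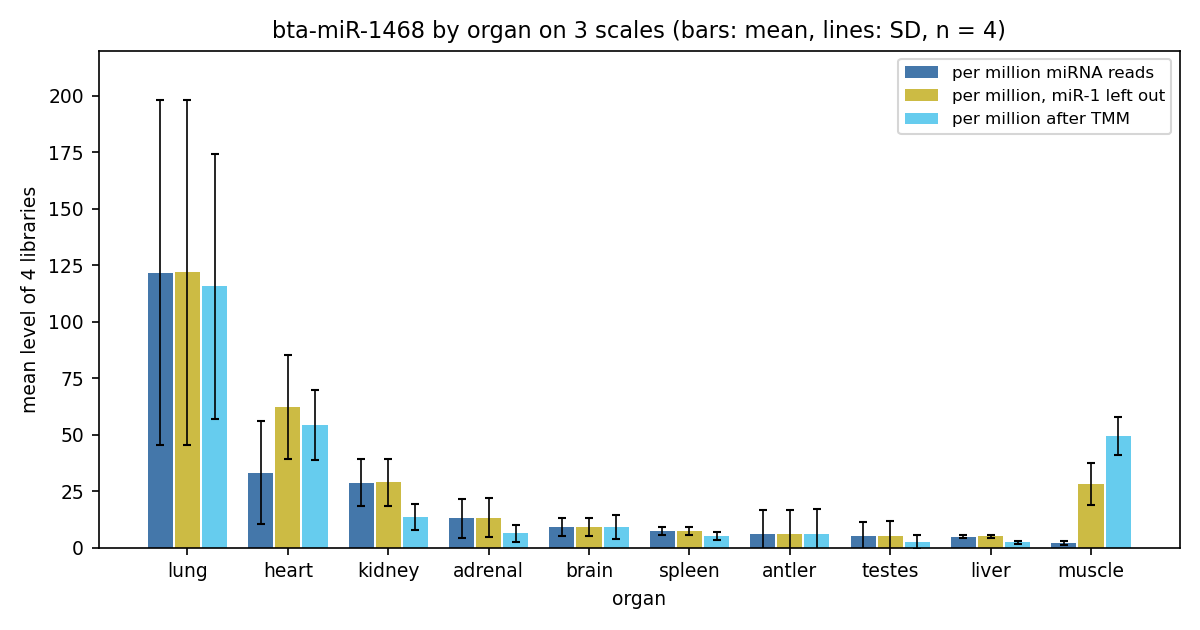
Mean level of bta-miR-1468 in each organ on 3 scales: RPM, RPM with miR-1 left out of the totals, and RPM after TMM scaling. Bars start at 0 and lines give the SD over 4 libraries, shown only above 0. Lung is highest on each scale, while heart and muscle are higher without miR-1 and after TMM scaling than in plain RPM.

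Of the 126 known miRNAs that reached 10 reads in 4 or more libraries, only 4 had their highest mean RPM in lung. bta-miR-1468 had the largest ratio to the next organ, 3.67, which is the value it was selected on. The others were miR-26c and miR-26a, each at 1.41 times brain, and miR-3432a at 1.23 times adrenal. miR-26c and miR-26a share nearly all their reads and are taken here as 1 miRNA, though the totals hold the reads under both names. Their place rested on the adolescence lung library: without it the lung mean of miR-26a was 61220 RPM, below the brain mean of 90405 RPM. For bta-miR-1468 and miR-3432a the lung mean without that library was higher, at 152 and 964 RPM. bta-miR-490 stood at 0.335 times its highest organ in lung, at rank 30 of the 126.

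For bta-miR-490, brain and heart were the highest organs. Brain held 164, 882, 1601 and 1307 RPM in juvenile, adolescence, adult and aged deer, from 190, 325, 1279 and 1205 reads, with a mean of 988 ± 624 RPM (SD, n = 4). Heart held 217, 188, 1592 and 1845 RPM from 560, 480, 2421 and 1670 reads, with a mean of 960 ± 882 RPM (SD, n = 4). The ranges of brain and heart overlapped, and in both the juvenile library was far below the adult and aged libraries. In RPM the adolescence library was also low in heart, in brain it was not. With miR-1 left out, adolescence heart stood at 1013 RPM against 513, 2329 and 2174 RPM in juvenile, adult and aged heart. After TMM scaling it stood at 1243 against 498, 1431 and 1819.

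Lung held 205 RPM of bta-miR-490 in juvenile (214 reads), 203 in adolescence (132 reads), 325 in adult (249 reads) and 592 in aged deer (617 reads), a mean of 331 ± 183 RPM (SD, n = 4). Lung stood behind liver with 292, 321, 156 and 999 RPM and kidney with 176, 447, 671 and 407 RPM, whose means were 442 and 425 RPM. These 3 organs overlapped one another and the wide ranges of brain and heart. After TMM scaling lung was at rank 3, with a mean of 335 against 215 in liver and 194 in kidney. Within single stages lung was at rank 3 in juvenile deer and at rank 4 at the other 3 stages in RPM. It was below the highest organ at each stage, which was liver, brain, brain and heart in stage order.

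Below lung came adrenal with 55.9, 97.0, 284 and 338 RPM, and spleen with 27.1, 48.3, 48.6 and 57.5 RPM. Testes held between 14.9 and 47.8 RPM, but from 18, 1, 2 and 2 reads. Antler had 0, 0, 2 and 1 reads. Muscle had 0 of 25734494 reads over its 4 libraries, which allows up to 0.117 RPM, while heart, the other striated muscle, had 5131 reads. So heart and skeletal muscle had the rank 2 and the rank 10 by their means in RPM, although adolescence heart was below brain, kidney, liver and lung of its stage. With miR-1 left out, heart had the rank 1 with a mean of 1507 RPM against 990 in brain. Adolescence heart was then the highest organ of its stage, at 1013 RPM. After TMM scaling heart also had the rank 1, with a mean of 1248 against 917 in brain. Other striated muscle miRNAs were abundant in both: the list led by miR-1 and miR-133a had a mean summed level of 605808 RPM in heart and 940158 RPM in muscle.

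The reads of the 2 miRNAs did not keep a constant ratio. In lung there were 0.943, 6.6, 2.9 and 4.64 reads of bta-miR-490 for each read of bta-miR-1468 in juvenile, adolescence, adult and aged deer. In heart there were 8.75, 17.8, 24.7 and 55.7, and in brain 38.0, 81.2, 116 and 172. Liver also had high ratios, at 64, 53, 30.5 and 233. By mean RPM, brain had the rank 1 for bta-miR-490 and the rank 5 for bta-miR-1468. Liver had the ranks 3 and 9, and heart had the rank 2 for both.

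In the adolescence lung library bta-miR-1468 stood at 0.202 times the mean of the other 3 lung libraries. Its 20 reads give a 95% exact binomial interval of 18.8 to 47.5 RPM, and that of adult lung, the next lowest, was 89.7 to 138 RPM. Such an interval covers the counting of reads only, and the PCR copies in it are not independent molecules. The drop was part of the selection, so the intervals are given as a description and are no test of it. bta-miR-490 stood at 0.543 times the mean of the other 3. Its interval was 170 to 241 RPM, and that of juvenile lung was 178 to 234 RPM. In RPM, adult and aged lung were higher than both younger libraries, and juvenile and adolescence lung were level. After TMM scaling bta-miR-490 stood at 166 in juvenile, 236 in adolescence, 374 in adult and 566 in aged lung, so adolescence lung was then above juvenile lung. bta-miR-1468 stood at 177, 35.7, 129 and 122 on that scale and was still lowest in adolescence lung.

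**Figure D3:**
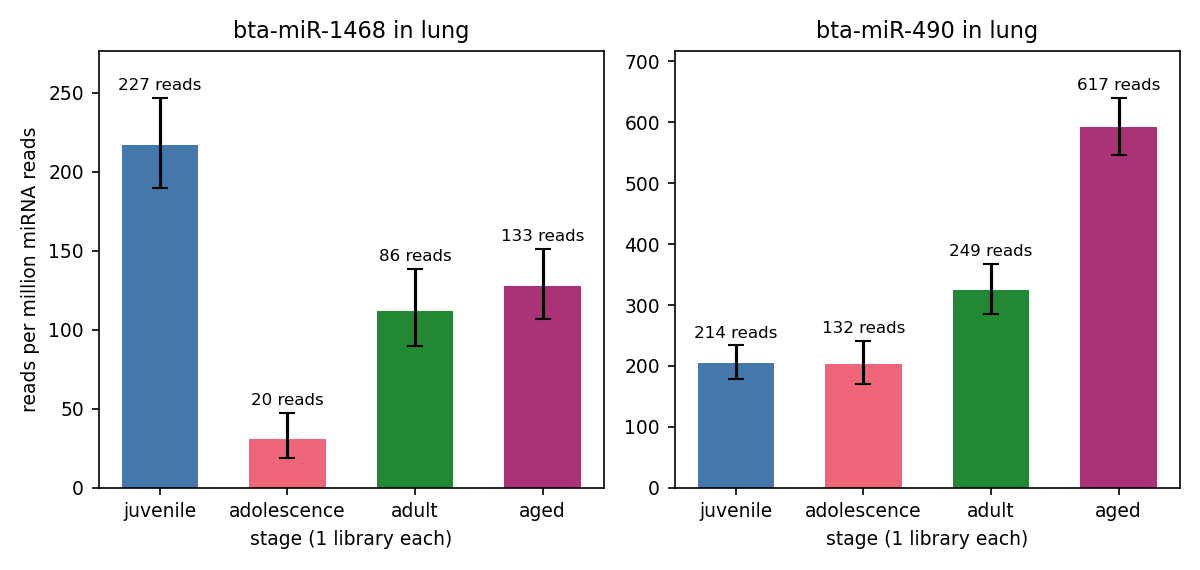
Level of bta-miR-1468 (left) and bta-miR-490 (right) in the 4 lung libraries, in RPM, with 95% exact binomial intervals and the number of reads above each bar. The vertical axes differ. bta-miR-1468 is lowest in adolescence lung, with 20 reads, while bta-miR-490 is level in juvenile and adolescence lung at 205 and 203 RPM (166 and 236 after TMM scaling, not drawn) and highest in aged lung at 592 RPM.

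Many other miRNAs differed in the same library. Of 102 known miRNAs that reached 10 reads in a lung library, 37, or 36.3%, were lower in adolescence lung than the mean of the other 3 by more than 1 on the log2(RPM + 1) scale, and 23 were higher by more than 1. bta-miR-1468 was lower by this measure at -2.21, rank 14 of 102 from the lowest, and bta-miR-490 at -0.74 had rank 42. The median of the 102 was -0.35. Adolescence lung had 58.8% of these miRNAs past 1 in either direction, against 42.2% for juvenile, 18.6% for adult and 31.4% for aged lung when each was set against the other 3. By the same measure bta-miR-1468 stood at 1.495 in juvenile lung, 0.23 in adult and 0.48 in aged lung.

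The miRNAs with the largest differences in that library were miR-2904 at -6.12 (0 reads against 309 in the other 3 libraries), miR-423-3p at -3.89, miR-328 at -3.74, miR-433 at -2.93 and miR-2898 at -2.89. The largest in the other direction were miR-1277 at 3.77, miR-135a at 3.57, miR-135b at 3.36, miR-142-5p at 3.05 and miR-7 at 2.59. miR-142-5p is a miRNA of white blood cells and stood at 369 RPM in adolescence lung against 18.2, 49.5 and 91.2 RPM in juvenile, adult and aged lung. miR-150, another one, differed the other way, with 13.8 RPM (9 reads) against 44.0, 31.3 and 90.2 RPM.

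Among the most abundant miRNAs, miR-26a took 325107 RPM in adolescence lung against a mean of 61220 RPM in the other 3 lung libraries, and let-7b took 78892 RPM against 320545 RPM. Sums over marker lists differed in that library too. Of 5 white cell miRNAs 3 had a name in the files, and they summed to 392 RPM in adolescence lung and to 62.1, 80.8 and 181 RPM in juvenile, adult and aged lung, with miR-142-5p making up 369 of the 392 RPM. The striated muscle list, 8 names of which 4 had a read, summed to 5095 RPM in adolescence lung against 1229, 1312 and 1707 RPM, with miR-1 at 4815 RPM, miR-133a at 260 RPM against 253, 261 and 655 RPM, and miR-206, miR-208a, miR-208b and miR-499 at 0 in all lung libraries. The fibroblast list summed to 37154 RPM against 55749, 30809 and 41044 RPM, and its members went both ways. miR-214 stood at 480 RPM against 3305, 1460 and 2383 RPM, and miR-199c at 266 RPM against 769, 326 and 878 RPM. miR-199a-5p stood at 14803 RPM against 12978, 7480 and 9970 RPM, and miR-199a-3p at 21605 RPM against 38697, 21544 and 27813 RPM. From the red cell list, miR-486 stood at 2598 RPM against 8599, 2180 and 4449 RPM, but it was highest in heart. miR-451, another member of that list, had 2 lung reads in all, none of them in adolescence lung. Smooth muscle miR-145 stood at 32894 RPM against 27400, 21866 and 30838 RPM. The 2 names of ciliated cells had 1 lung read each. Their part in the low bta-miR-1468 level was not tested, and with 1 library at the stage the library and the stage cannot be told apart.

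**Figure D4:**
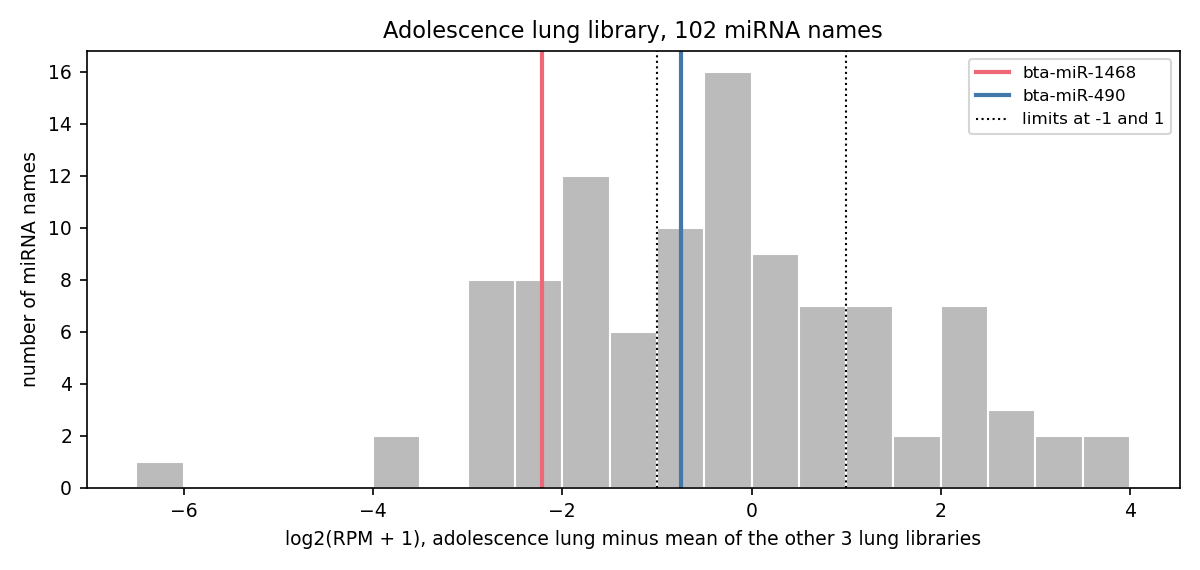
Difference of log2(RPM + 1) between the adolescence lung library and the mean of the other 3 lung libraries for 102 known miRNAs, as a histogram with bins of 0.5. Dotted lines stand at -1 and 1, and coloured lines mark bta-miR-1468 at -2.21 and bta-miR-490 at -0.74. bta-miR-1468 lies among the 37 miRNAs below -1, and bta-miR-490 does not.

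All adolescence libraries came from the same 3 deer, and low values of other miRNAs outside lung were not counted. In RPM, bta-miR-1468 at adolescence lay below the mean of the other stages in some organs outside lung and above it in others. Its adolescence library stood at 0.259 times the mean of the other 3 in heart, 0.374 in adrenal, 0.401 in kidney and 0.653 in muscle, from 27, 5, 5 and 9 reads. It stood at 1.27 in brain, 1.30 in liver and 1.08 in spleen, from 4, 2 and 7 reads. In antler and testes the adolescence library had no read. Of heart, adrenal, kidney and muscle, only kidney had its lowest value at adolescence on all 3 scales, from 5 reads. In heart the low value went with miR-1 at 81.5% of the reads. With miR-1 left out, adolescence heart stood at 57.0 RPM against 58.7, 94.3 and 39.1 at the other stages, inside their range. After TMM scaling adolescence was the highest heart library at 69.9, adolescence muscle at 49.8 lay inside the range of the other muscle libraries, and adolescence adrenal at 3.69 was above adult adrenal at 3.24.

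The levels in the 9 organs outside lung were also fitted together, over 36 libraries. A limma model with a term for organ and one for stage was fitted to the TMM-scaled log2(RPM + 1) values of 123 known miRNAs. Both miRNAs passed an adjusted p below 0.01 for a difference among the 9 organs, as did 91 of the 123 miRNAs, or 74%. A high lung level is a level against these organs, so they entered the selection and nothing is read from this test. The spread in the model is that between pooled libraries only.

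Heart and brain were then set against the mean of the other 7 organs outside lung. These 2 organs were picked with the read counts of both miRNAs known, so the differences are given as a description. For bta-miR-490 the log2 difference was 5.83 (SE 0.44) in heart and 5.16 (SE 0.44) in brain, and the difference between heart and brain was 0.67 (SE 0.59). For bta-miR-1468 it was 3.00 (SE 0.54) in heart and 0.44 (SE 0.54) in brain, and heart stood above brain by 2.56 (SE 0.72). The 7 organs hold muscle and antler, where bta-miR-490 was at or near 0. Without those organs, a setting chosen after seeing the data, its difference was 4.72 in heart and 3.22 in brain. Over 51 alternatives the heart difference ran from 4.15 to 6.24 for bta-miR-490 and from 1.79 to 3.91 for bta-miR-1468. The brain difference of bta-miR-490 ran from 3.22 to 5.66.

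In the whole table, 13.8% of the 123 miRNAs were called higher in heart than in the 7 organs, 19.5% higher in brain and 17.9% higher in heart than in brain, at an adjusted p below 0.01 and a log2 difference above 1. The median of all 123 was -0.37 in heart, -0.14 in brain and -0.17 between heart and brain. Scaling to total miRNA reads moved these medians to -1.36, -0.22 and -0.98. On that scale 12 miRNAs were called higher in heart and 49 lower, against 17 and 23 after TMM scaling. The heart minus brain difference of bta-miR-490 turned to -0.33 with total reads, and that of bta-miR-1468 was 1.59.

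Stage was not used in the selection outside lung. The adult and aged mean of bta-miR-490 was above the juvenile and adolescence mean in 8 of the 9 organs, the other being muscle with 0 reads. All organs of a stage came from the same 3 deer, and the same count was not made for other miRNAs. Over the 123 miRNAs fitted, the median log2 difference of older minus younger libraries was 0.12 with total reads and -0.15 after TMM scaling. The ratio in RPM was 8.499 in heart, 4.07 in adrenal, 2.78 in brain, 1.88 in liver, 1.73 in kidney and 1.41 in spleen and in testes. The size depended on the scale. In heart the ratio was 2.95 with miR-1 left out and 1.87 after TMM scaling. After TMM scaling it was 2.51 in adrenal, 1.36 in brain, 1.53 in liver, 1.83 in kidney, 1.80 in spleen and 1.47 in testes. In heart, adrenal and antler both older libraries stood above both younger ones on the 3 scales, in antler from 0 to 2 reads a library. In spleen the older libraries were above the younger ones after TMM scaling (42.4 and 39.97 against 14.9 and 30.7), while in RPM adolescence and adult were level at 48.3 and 48.6, from 43 and 44 reads. In brain both older libraries stood above both younger ones in RPM and with miR-1 left out but not after TMM scaling, where adolescence brain at 1369 was above adult at 847 and aged at 1263. In kidney they did so after TMM scaling alone. In liver the higher older mean rested on the aged library at 999 RPM. Adult liver at 156 RPM was below juvenile and adolescence liver at 292 and 321 RPM. In lung, which was not tested, the ratio was 2.25 in RPM and 2.34 after TMM scaling, and both older libraries were above both younger ones.

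Over the 36 libraries, the log2 difference of bta-miR-490 between older and younger libraries was 0.84 (SE 0.29) with an adjusted p of 0.0323 in limma, which did not pass the limit of 0.01. The 9 organ libraries of a stage came from the same 3 deer, so this sets 2 pools of deer against 2, and a fit that takes 36 libraries as separate gives p-values for stages that are too small. For bta-miR-1468 it was 0.29 (SE 0.33) with an adjusted p of 0.611, and its older mean was higher in 5 of 9 organs. Over all miRNAs tested, 7, or 5.69%, were called in this comparison, 2 higher and 5 lower. This balance turned with the scale, to 4 higher and 0 lower with total miRNA reads and 3 higher and 1 lower with miR-1 left out of the totals. Among the 4 stages without an order, bta-miR-490 had an adjusted p of 0.0643 and bta-miR-1468 one of 0.870, and 1.63% of all miRNAs were called. The call of bta-miR-490 changed with the scale and the tool: with total miRNA reads the older minus younger difference was 1.22 (adjusted p = 0.00725), and with DESeq2 on recovered reads 1.07 (adjusted p = 0.00424). Leaving out the 9 adolescence libraries gave 1.34 (adjusted p = 0.00767 in limma). Leaving out the adult liver library alone gave 1.01 (adjusted p = 0.00705 in limma). In the other 46 of 50 alternatives the difference did not pass. The highest adjusted p over the limma, edgeR and DESeq2 alternatives was 0.322.

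Whether this difference varied between organs was tested as well. The organ by maturity test gave an adjusted p of 0.925 for bta-miR-490 and 0.553 for bta-miR-1468 in limma. No miRNA of the 123 passed (0%), with 13 at an unadjusted p below 0.05. edgeR also called 0 and DESeq2 called 4. On the TMM scale of this test the older to younger ratio of bta-miR-490 was 1.87 in heart and 1.80 in spleen. With total miRNA reads, the scale on which these ratios were 8.499 and 1.41, the organ by maturity test gave an adjusted p of 0.288 for bta-miR-490 in limma.

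**Figure D5:**
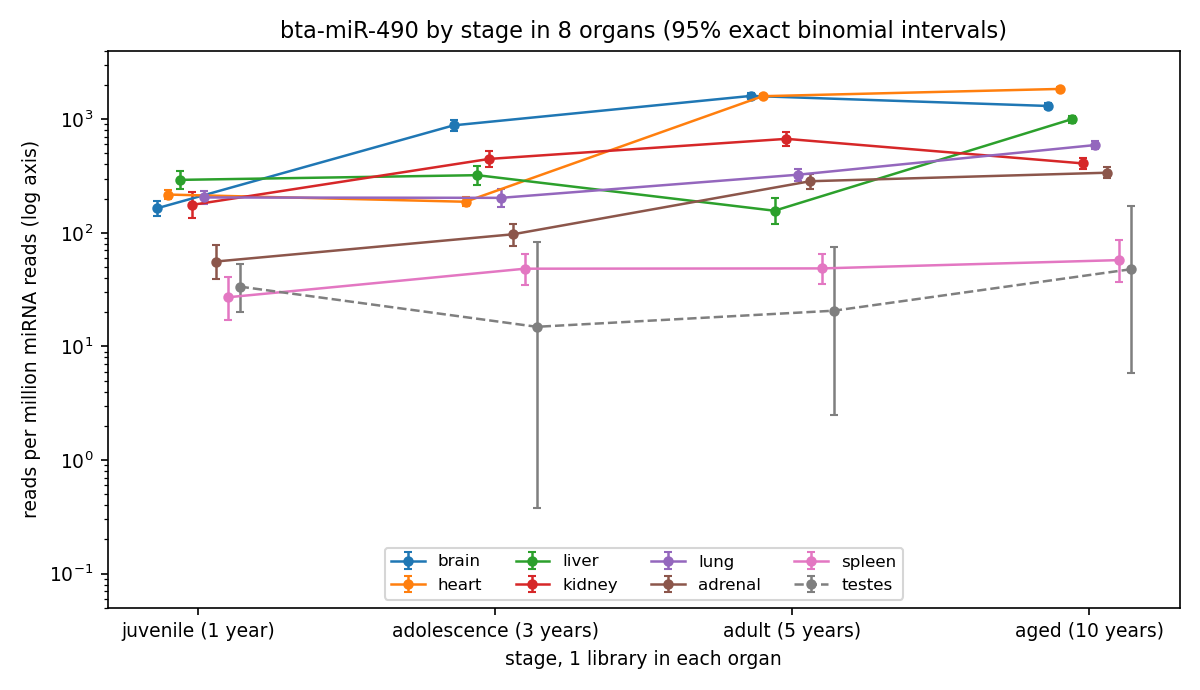
Level of bta-miR-490 by stage in the 8 organs where it had reads at each stage, in RPM on a log axis, with 95% exact binomial intervals. Each point is 1 library and lines join the libraries of an organ. Heart, brain, adrenal, spleen and lung have both older libraries above both younger ones in RPM, which for brain is not so after TMM scaling. In spleen, adult and adolescence are nearly level at 48.6 and 48.3 RPM. The intervals of testes are wide since they rest on 1 to 18 reads.

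Single libraries were also compared within organs by a random sampling model of DEGseq, the package that the study used. This test compares the reads of 2 libraries, not the stages, and the 6 pairs of an organ share libraries. Of 54 pairs outside lung, 47 had a read of bta-miR-490 and 52 a read of bta-miR-1468, and only these could be tested. bta-miR-490 was called in 18 of its 47 pairs, in 17 of which the older library was higher. The calls lay in heart (4), adrenal (4), liver (4), brain (3) and kidney (3). The exception was liver, where adult deer at 156 RPM stood below adolescence deer at 321 RPM. Spleen, testes and antler gave no call, and muscle had no read. bta-miR-1468 was called in 6 of its 52 pairs, 4 of them in heart, 1 in adrenal and 1 in antler. Over all miRNA names 22% of the pair tests were called, and the direction of those calls was not counted. With miR-1 left out of the library sizes, a setting chosen after seeing the data, the calls of bta-miR-1468 dropped to 3.

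The miRNAs most like each of them were sought over the 40 libraries among 126 miRNAs, by Pearson's r of log2(RPM + 1) after TMM scaling. The libraries share deer within a stage and organs across stages, so r is a description. For bta-miR-490 the most alike were miR-30f at 0.76, miR-1343-3p at 0.69, miR-1296 at 0.65, miR-328 at 0.64 and miR-197 at 0.58. For bta-miR-1468 they were miR-486, which is also in the red cell list, at 0.60, miR-26c and miR-26a at 0.56 each, miR-30a-5p at 0.55 and miR-378 at 0.54. Between bta-miR-1468 and bta-miR-490 r was 0.28, against a median of 0.02 over all pairs of the 126. So the lists of the most alike miRNAs had no name in common, and the 2 miRNAs were not among each other's closest.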

How the data were processed

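Small RNA of 40 pooled libraries was sequenced, per the labels and the study's methods. After trimming adapters, dropping short reads and setting other RNA classes aside, the authors matched reads to miRBase 22.0, predicted further miRNAs with miRDeep 2.0.5, and deposited RPM per miRNA name, not divided by length, and listing only names with a read. The submitters' processing notes also name CASAVA, bcl2fastq 1.8.4 and Bowtie. The deposited RPM gave whole reads for all 7982 listed values (100% within 0.01 of a read), so reads were recovered. Depth was 41866 to 7759033 reads per library, with reads of near-identical names counted under each name. For each organ and stage 1 library stood. The edgeR count test on these reads, an alternative, called 96 of the miRNAs among organs, against 91 in limma.

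Models used limma 3.58.1 in R 4.3.3 on TMM-scaled log2(RPM + 1) values (edgeR 4.0.16) of miRNAs that reached 10 reads in 4 or more libraries, with Benjamini-Hochberg adjustment. The 3 contrasts of heart and brain were adjusted together. A call needed an adjusted p below 0.01 and, in a contrast, an absolute log2 difference above 1. Lung entered no test. Stage was a replicate block in the organ tests, since the same deer gave all organs of a stage. Deviations of same-stage libraries from their organ means had a mean r of 0.126 over 144 pairs. Pairs of another stage and another organ had -0.041. That value follows largely from taking deviations from organ means, so nothing is read from the contrast. The random sampling model used 0.5 reads in place of 0. Alternatives were DESeq2 1.42.0, other scalings, pseudocounts and filters, and libraries or stages left out. Intervals and limits from 3 reads cover counting error only. Python 3.11.15, pandas 2.3.3 and scipy 1.17.1 were used, and scripts were tested on simulated data. Both miRNAs, the named miRNAs and the marker lists were chosen with earlier results of these data known. Besides the pair, the text names the 5 miRNAs most like each, the 5 largest differences in each direction in adolescence lung, those highest in lung and the cell type markers.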

Additional observations from a re-analysis of the deposited data

Results flagged for a closer look

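Each organ's 4 libraries were screened for a library whose gap to its nearest neighbour took a larger part of the organ's range than Dixon's 95% critical value, for both miRNAs and the organs other than lung, 17 groups in all. Chance alone flags about 1 in 20 such groups. bta-miR-1468 in antler was the one found, where the aged library stood at 22.2 RPM (16 of 722160 reads) against 0, 0 and 1.48 RPM at the younger stages. The 0 reads of juvenile and adolescence antler came from 214726 and 214165 reads.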

How the results depend on the processing

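The 2 miRNAs were followed through 7 tests under up to 51 alternatives, 708 values in all, of which 693 kept both their direction and their side of the limits. The organ tests are among them, and since the organs entered the selection nothing is read from their stability. The contrasts of heart and brain are a description, so no call is read from them either. Without the replicate block, bta-miR-490 in heart stood at 5.83 with an SE of 0.52. The heart minus brain difference of bta-miR-1468 changed its side of the limits in 8 of 51 alternatives. It was 1.59 with total miRNA reads against 2.56. The others left out the juvenile or the adult stage, the juvenile, adult or aged brain library, or the juvenile or adolescence heart library. The difference ran from 1.98 to 3.28 with a library or stage left out. That of bta-miR-490 turned to -0.33 with total reads. bta-miR-1468 in brain turned from 0.44 to -0.0057 with DESeq2. The older minus younger difference of bta-miR-490 passed in 4 of 50 alternatives, among them total reads (1.22) and DESeq2 (1.07). It ran from 0.59 to 1.34 with a library or stage left out. The stage test of bta-miR-490 passed with DESeq2 (adjusted p = 0.00328). bta-miR-490 in lung moved from rank 5 to rank 3 with TMM, and the pairs called for bta-miR-1468 fell from 6 to 3 without miR-1. The causes were not tested.

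The number of miRNAs called also moved. For heart against 7 organs it went from 40 to 61 with total reads and 26 without muscle and antler, and ran from 24 to 43 with a library or stage left out. For maturity it went from 7 to 12 with DESeq2, to 4 with total reads, no minimum of reads, edgeR, totals without miR-1 or the testes left out, and to 2 without muscle and antler, and ran from 0 to 14 with a library or stage left out. For stage it went from 2 to 15 with DESeq2, 5 with its size factors, 4 with near-identical names merged, 1 with no minimum, and 0 with total reads, totals without miR-1 or without muscle and antler, and ran from 0 to 12 with a library or stage left out. For organ by maturity it went from 0 to 5 with no minimum and 4 with DESeq2, and ran from 0 to 1 with a library or stage left out. Depth limits bta-miR-1468, as 17 of its 40 libraries held 10 or more reads, and in the aged testes library 1 read stood for 23.9 RPM.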
